A study of Mus musculus with 6 samples.

Results

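Endoplasmic reticulum (ER) folding and degradation genes make up a set of 43 genes, named by symbol, that cover the chaperones, the disulphide and prolyl isomerases, the stress sensors, the degradation machinery and the entry and exit steps of the ER. All 43 symbols were found, each on 1 row, among the 37309 gene rows of the deposited table, and 42 of the 43 passed the filter on low values described below. Derl3, the exception, read 4.70, 2.40 and 1.77 in the vehicle libraries and 3.79, 4.21 and 3.96 under DAPT, and was not tested. In a cell that secretes matrix, collagen and other glycoproteins enter the ER through the Sec61 channel, are folded by chaperones and isomerases, and leave in vesicles that carry the COPII coat. Proteins that fail to fold are sent back to the cytosol for destruction, which is called ER-associated degradation. When unfolded proteins build up, 3 sensors, encoded by Ern1, Eif2ak3 and Atf6, start the unfolded protein response, which slows protein entry and raises the folding genes.

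The samples were ImSMC, smooth muscle cells of the descending aorta of the immorto mouse, whose cells carry a conditional large T antigen that lets them grow on in culture. They were held for 3 days with 50 uM DAPT, an inhibitor of the protease gamma-secretase and so of Notch signalling, or with the solvent DMSO as vehicle control, and 3 libraries were sequenced from each group. Both groups therefore share the immortalised background, and whether the antigen was active is not given in the sources used here. No source used here says that the replicates were separate cultures, so p-values measure the spread between these libraries, which may be technical. Library totals ran from 10702548 to 14503665 reads. Levels are normalised read counts, that is reads per gene divided by a size factor per library, with n = 3 per group throughout.

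Some facts of the whole comparison bear on all that follows. The Notch target Hes1 went from 326 to 211 (log2 change -0.62, limma adjusted p = 6.35e-07). Among 10 smooth muscle markers 9 were tested, and 3 were lower and 0 higher (0 also at an unadjusted p under 0.05, by edgeR and by DESeq2). The 3 lower markers were Acta2 (520 to 252, log2 change -1.05), Tagln (925 to 495, -0.90) and Mylk (47.7 to 29.6, -0.65). Among markers of the mature contractile cell, Myh11 was low in both groups, at 49.2 ± 4.28 and 47.1 ± 3.99 (mean ± SD). Myocd was at or below 1.20 in every library. Smtn (1078 and 1069) and Cald1 (8606 and 8459) were not low in either group and did not pass. The summed mesothelial markers fell from between 2896 and 2956 to between 1517 and 1650.2, with 4 of 5 tested markers lower. Fibroblast markers summed to between 28264 and 30399 in vehicle and 29142 and 30671 under DAPT (1 higher and 4 lower of 8). Endothelial markers summed to between 583 and 640.2 in vehicle and 596 and 618 under DAPT, and 0 of 3 tested passed. Most of that sum was Kdr, at 541 ± 18.1 and 528.5 ± 14.2, whereas Pecam1 and Cdh5 were under 4 everywhere. Leukocyte markers summed to between 347 and 400.0 in vehicle and 420 and 435 under DAPT, with 1 higher and 0 lower of 3 tested. That marker was Cd68, at 178 ± 11.96 and 218 ± 2.53 (log2 change 0.29, limma adjusted p = 0.0148), Csf1r read 175 ± 18.2 and 189.7 ± 9.15 without passing (adjusted p = 0.417), and Emr1 and Cd3e were at 0 in all libraries. The share of counts from the mitochondrial genome was 2.05% ± 0.143 in vehicle and 2.52% ± 0.25 under DAPT. The part of these shifts in the results below was not tested, and in bulk RNA fewer cells of a type and less RNA per cell cannot be told apart.

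Many genes of this kind are known targets of the unfolded protein response and share promoter elements, and the following stretches are shown because the same element stands before genes that rose, fell or stayed under the threshold. In the RefSeq promoter table (GRCm38.p6, 250 bases before to 50 after each gene's start) 35 of the 43 genes had an entry. The ER stress response element ERSE, which is CCAAT, then 9 bases of any kind, then CCACG, is known as the site where ATF6 acts with the CCAAT-binding factor NF-Y. On either strand it stood in 9 of 35 genes (25.7%), against 37 of 27025 genes in the table (0.137%), these 9 among them. Since genes of this kind are known to share such elements, these shares describe the set and are not a test. Its relative ERSE-II, which is ATTGG, then 1 base of any kind, then CCACG, stood in 2 (5.71%, against 0.0444%), and the unfolded protein response element UPRE, TGACGTGG, in 3 (8.57%, against 0.714%). No gene of the set held more than 1 of the 3 motifs. Capitals mark the fixed letters of the motif on the strand read in the direction of the gene. The first group shows 3 genes that passed the test, Canx (higher), Pdia6 and Syvn1 (both lower), then 3 that did not, and last a pair with the UPRE.
Canx: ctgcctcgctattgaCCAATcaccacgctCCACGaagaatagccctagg
Pdia6: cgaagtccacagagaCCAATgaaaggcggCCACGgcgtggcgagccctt
Syvn1: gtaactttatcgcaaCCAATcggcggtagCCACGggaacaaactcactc
Hspa5: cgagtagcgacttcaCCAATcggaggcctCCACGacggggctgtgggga
Calr: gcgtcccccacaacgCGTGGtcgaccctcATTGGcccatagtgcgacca
Dnajc3: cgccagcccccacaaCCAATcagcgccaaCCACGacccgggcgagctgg
Sec24d: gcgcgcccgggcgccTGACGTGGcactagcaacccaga
Kdelr3: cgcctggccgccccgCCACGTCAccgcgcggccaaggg
These stretches lie at chr11:50325785-50325833 on the minus strand for Canx, chr12:17266476-17266524 for Pdia6, chr19:6046517-6046565 for Syvn1, chr2:34772010-34772058 for Hspa5, chr8:84847060-84847108 on the minus strand for Calr and chr14:118937812-118937860 for Dnajc3. The UPRE stretches lie at chr3:123267455-123267492 for Sec24d and chr15:79516363-79516400 for Kdelr3, and those with no strand named are on the plus strand. In Calr and Kdelr3 the motif reads on the opposite strand. The element began 145 bases before the start in Canx, 98 in Pdia6, 44 in Syvn1, 65 in Hspa5, 162 in Calr and 105 in Dnajc3. Of the 10 tested genes with an ERSE or ERSE-II, 1 was higher under DAPT, 2 were lower and 7 did not pass, with a median log2 change of -0.04. The 3 genes with a UPRE were Sec23a, which was lower (its match lies after the start and is not printed), and Sec24d and Kdelr3, which did not pass, with a median of -0.08. Of the 21 tested genes with an entry and none of the motifs, 2 were higher, 3 lower and 16 did not pass, with a median of -0.01. Over all 14906 genes tested, 9.22% were higher and 8.91% lower. These motif groups differ by few genes, so their counts do not show whether a motif goes with a change. A match describes these letters only, and none of the motifs was tested for binding.

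Under DAPT 11 of the 42 tested genes passed the threshold, 3 higher (Canx, Edem1 and Derl2) and 8 lower (Fkbp10, Fkbp7, Sec23a, Atf6, Syvn1, Pdia6, Pdia4 and P4hb), by limma with an adjusted p under 0.05. That is 26.2% of those tested, against 18.1% of all 14906 genes tested. By direction, 3 of 42 stood beside 9.22% of all genes that were higher, and 8 of 42 beside 8.91% that were lower. The changes were small. The log2 changes ran from -0.40 to 0.26, 8 of the 11 genes that passed moved by less than 0.2 on the log2 scale, and 0 of 42 reached 1.5-fold, which 3.05% of all genes did. The median log2 change was -0.04 over the set and 0.00 over all genes, and the median size of change was 0.08 against 0.10. The median standard error (SE) of their log2 change was 0.0402, against 0.0672 for all genes. For all 31 genes that did not pass, the 95% interval of the log2 change lay between -0.30 and 0.20. In 21 of 42 genes (50%) the 3 libraries of one group lay entirely above those of the other, as they did in 33.3% of all genes.

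**Figure D1:**
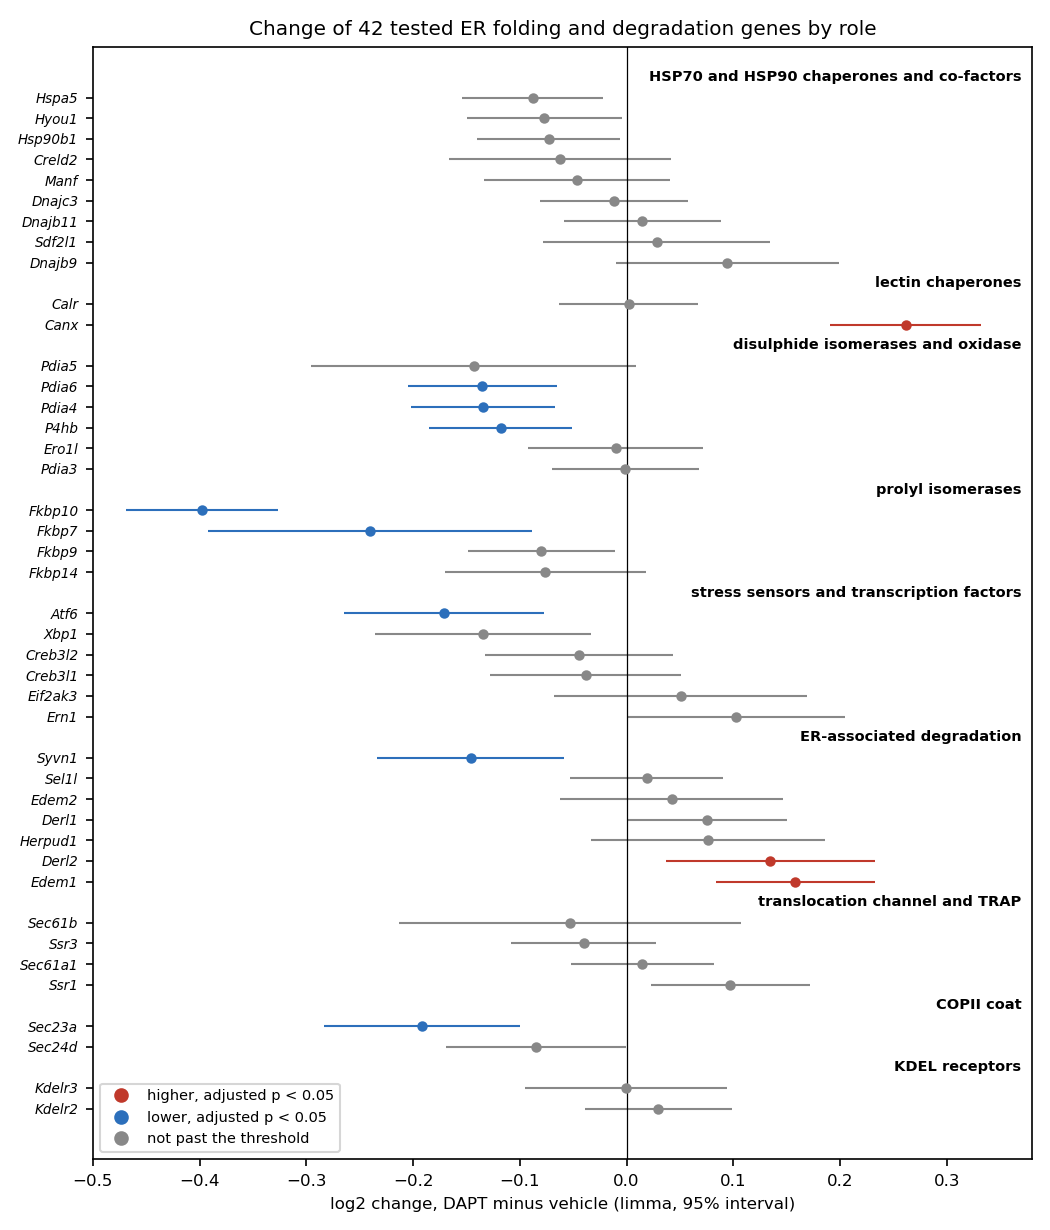
Log2 change, DAPT minus vehicle, of the 42 tested genes in order of role, each a point with its 95% interval from limma, with genes past the threshold in red (higher) or blue (lower). Canx stands alone at the right at 0.26, Fkbp10 lies farthest left at -0.40, and the other points lie between -0.24 and 0.16.

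The count depended on the libraries used and on the tool. edgeR on the 5 libraries with recovered reads called 8 of these genes. Limma without DAPT replicate 3, which uses the same 5 libraries, also called 8. DESeq2 on these libraries called 2, Canx and Fkbp10. These 2 passed in all 15 alternative fits, and Pdia4, Pdia6, Edem1 and Sec23a passed in all but DESeq2. Of the 43 genes in the authors' deposited table, 8 had an adjusted p under 0.05, against 6.19% of all genes with a value there, and all 8 were also called here. That 6.19% is over 22960 genes, against 14906 tested here after the filter on low values, so it is not comparable with the 18.1% above. Fkbp7, Syvn1 and Derl2 did not pass in the authors' deposited table, with adjusted p-values of 0.182, 0.121 and 0.315.

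The heat shock family chaperones and their helpers gave no call. Of 9 genes tested, 0 passed with limma, against 18.1% of all genes, and 0 passed with edgeR or with DESeq2. At an unadjusted p under 0.05 with limma, 3 were lower and 0 higher. Hspa5 encodes BiP, the main ER chaperone of the HSP70 family and the gene most often read as a sign of ER stress. It read 17015, 17001 and 17068 in vehicle and 16018, 16491 and 15567 under DAPT. All 3 DAPT libraries lay below the vehicle libraries, and the log2 change of -0.09 (SE 0.032) missed the threshold (limma adjusted p = 0.0588). It passed with the replicate number as a block (adjusted p = 0.0479) and with a robust variance fit (0.0218), whereas quantile normalisation gave -0.05 (0.343), edgeR -0.07 (0.254) and DESeq2 -0.07 (0.42). Hsp90b1, the ER member of the HSP90 family, read 14454, 13775 and 14702 in vehicle and 13486, 13651 and 13661 under DAPT (log2 change -0.07, adjusted p = 0.131, and -0.02 after quantile normalisation). Hyou1, which exchanges the nucleotide of BiP, had a log2 change of -0.08 (adjusted p = 0.139). Like Hspa5, both had DAPT libraries below every vehicle library.

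The remaining helpers scattered around 0. Dnajb9, a J-domain cofactor that curbs the sensor IRE1, read 541, 544 and 553 in vehicle and 591, 580 and 578 under DAPT. Its 3 DAPT libraries lay above the vehicle libraries, opposite to Hspa5, but the log2 change of 0.09 did not pass (adjusted p = 0.216). Dnajb11, Dnajc3 and Sdf2l1, further BiP cofactors, and Creld2 and Manf, small proteins released during ER stress, had overlapping groups and log2 changes between -0.06 and 0.03. Summed over the 9 genes, the class held 3233 to 3334 ppm of all counts (the library's normalised counts together) in vehicle and 3113 to 3195 under DAPT, a difference of -3.90% without overlap.

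The lectin chaperones, calnexin (Canx) and calreticulin (Calr), hold glycoproteins by the same trimmed sugar, the first as a membrane protein and the second as a soluble protein of the lumen. Canx passed as higher and Calr did not pass. Canx read 9147, 9339 and 9891 in the vehicle libraries and 11073, 11558 and 11372 under DAPT. Every DAPT library lay above every vehicle library, and the mean was 19.9% higher (log2 change 0.26, SE 0.0342, limma adjusted p = 3.73e-06). It was the largest rise in the set. Calr, the gene with the highest level per length, read 19760.3, 19200.1 and 20077 in vehicle and 19798, 19503 and 19805 under DAPT. Its groups overlapped fully, and its log2 change was 0.00 (95% interval -0.06 to 0.07, adjusted p = 0.979). After quantile normalisation the log2 changes were 0.30 for Canx (adjusted p = 1.26e-06) and 0.07 for Calr (adjusted p = 0.138, and past an unadjusted 0.05). The ratio of Canx to Calr counts, chosen after their values were seen, was 0.463, 0.486 and 0.493 in vehicle and 0.559, 0.593 and 0.574 under DAPT. The ratio rose by 0.26 on the log2 scale with no overlap (two-sided exact permutation p = 0.1, the smallest that 3 against 3 libraries can give). Both promoters hold the ERSE shown above.

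Protein disulphide isomerases form and reshuffle disulphide bonds, and Ero1l is the oxidase that recharges them. Of the 6 genes 3 were lower, beside 8.91% of all genes, and 0 were higher (0 also at an unadjusted p under 0.05, by edgeR and by DESeq2). All 6 log2 changes were below 0, as were 7403 of 14906 over all genes, though that of Pdia3 turned to 0.08 after quantile normalisation. P4hb, which is also the beta subunit of the collagen prolyl hydroxylases, read 15981, 15267 and 16142 in vehicle and 14732, 14606 and 14326 under DAPT, and fell by 7.84% (log2 change -0.12, SE 0.0324, adjusted p = 0.012). No library overlapped, but the call was lost after quantile normalisation (log2 change -0.02, adjusted p = 0.773), with edgeR (0.0667), with DESeq2 (0.112), and without DAPT replicate 2 (0.052) or DAPT replicate 3 (0.0709). Pdia4 read 4369, 4379 and 4536 in vehicle and 4077, 3994 and 4029 under DAPT (log2 change -0.13, SE 0.0327, adjusted p = 0.00457). Pdia6, an isomerase that works beside BiP, read 3181, 3272 and 3311 in vehicle and 2932, 2951 and 3007 under DAPT (log2 change -0.14, SE 0.0338, adjusted p = 0.00591).

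In Pdia4 and Pdia6 the DAPT libraries lay below every vehicle library. With DESeq2 their adjusted p rose to 0.0654 for Pdia4 and 0.0565 for Pdia6. Pdia3, the isomerase that partners with the lectin chaperones, read 12103, 12055 and 12817 in vehicle and 12044, 12378 and 12515 under DAPT, with a log2 change of 0.00 (adjusted p = 0.989). Pdia5, the lowest of the class, had overlapping groups and a log2 change of -0.14 (SE 0.0739, adjusted p = 0.197). Ero1l stayed between 1179 and 1210.1 in all libraries (adjusted p = 0.903).

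The prolyl isomerases of the FKBP family speed the turning of peptide bonds before proline, a slow step in the folding of collagen and elastin. All 4 had DAPT libraries below every vehicle library, while 33.3% of all genes had groups that lay apart in either direction. Of the 4, 2 passed as lower, beside 8.91% of all genes, and 0 as higher (0 at an unadjusted p under 0.05, by edgeR and by DESeq2). Fkbp10, whose loss in humans causes brittle bones through poorly cross-linked collagen, read 3206, 3168 and 3090.3 in vehicle and 2429.8, 2359 and 2394 under DAPT. It fell by 24.1% (log2 change -0.40, SE 0.0343, limma adjusted p = 5.12e-09), the largest change in the set in either direction, and its adjusted p stayed at or below 9.94e-07 in all 15 alternatives. Fkbp7 read 445, 371 and 386 in vehicle and 309, 350.4 and 357 under DAPT (log2 change -0.24, SE 0.0734, adjusted p = 0.0233). Vehicle replicate 1 was its highest library and DAPT replicate 1 its lowest, and the call was lost without either (adjusted p = 0.15 and 0.151) and with DESeq2 (0.132).

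Fkbp9 read 5307, 5181 and 5216 in vehicle and 4799, 5119 and 4944 under DAPT (log2 change -0.08, adjusted p = 0.103). Fkbp14, which in humans underlies a form of Ehlers-Danlos syndrome, read 801, 790.3 and 774 in vehicle and 741, 745 and 758 under DAPT (log2 change -0.08, adjusted p = 0.278). Summed, the 4 genes held 737 to 754 ppm of counts in vehicle and 648 to 670.1 under DAPT, and the mean fell by 11.4%. The mesothelial markers given above moved in the same direction, and their part in this difference was not tested.

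**Figure D2:**
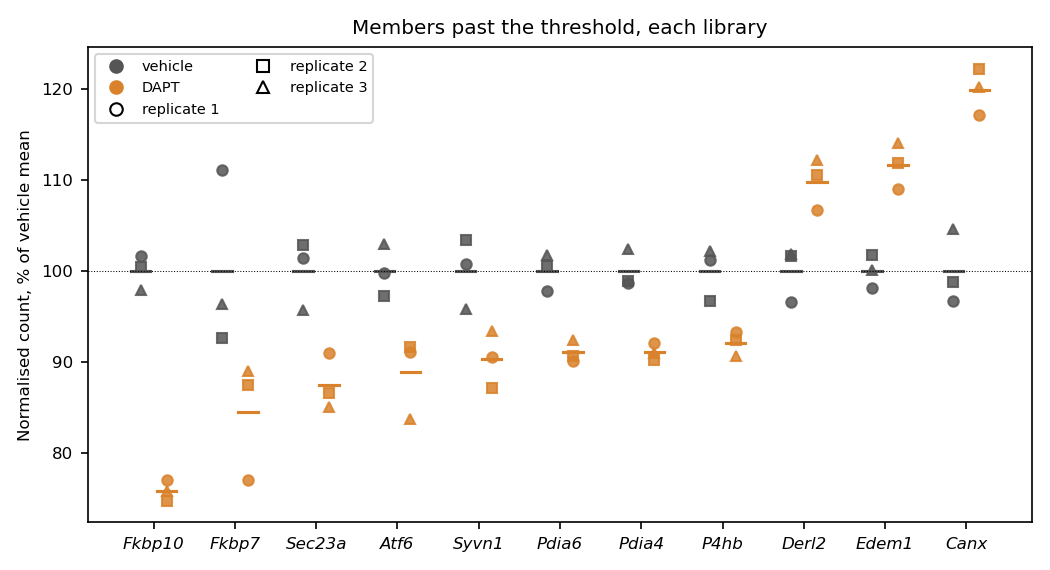
Normalised count in each of the 6 libraries for the 11 genes past the threshold, as a percentage of the gene's vehicle mean, with dark points for vehicle, orange points for DAPT, marker shapes for replicates 1 to 3 and bars for group means. In all 11 genes the groups lie apart, with Fkbp10 24.1% below and Canx 19.9% above the vehicle level, and Fkbp7 shows the widest vehicle spread.

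The sensors and their transcription factors set how the ER responds to load. Of 6 tested, 1 was lower and 0 were higher, which is 16.7% called, against 18.1% of all genes. At an unadjusted p under 0.05, 1 was higher and 2 were lower. With edgeR and with DESeq2, 0 were higher and 0 lower. Atf6, a sensor that is cut in the Golgi to release a transcription factor, read 1119, 1092 and 1156 in vehicle and 1023, 1029 and 940.0 under DAPT (log2 change -0.17, SE 0.0453, adjusted p = 0.00906). Its groups did not overlap, and DAPT replicate 3 was the lowest library. Without it the adjusted p was 0.0869, with edgeR 0.0718 and with DESeq2 0.347. Xbp1, whose messenger is spliced by IRE1 to give the active factor, read 1006, 949 and 1040.4 in vehicle and 916, 959 and 855 under DAPT. The groups overlapped, since DAPT replicate 2 lay above vehicle replicate 2, and the log2 change of -0.13 did not pass (adjusted p = 0.0592). It passed without vehicle replicate 2 (0.0358) and without DAPT replicate 2 (0.0415). Gene-level counts do not separate spliced from unspliced Xbp1.

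Ern1, which encodes IRE1, read 1134, 1074 and 1017 in vehicle and 1219.6, 1165 and 1079.7 under DAPT, with overlapping groups and a log2 change of 0.10 (adjusted p = 0.16). Eif2ak3, which encodes PERK, the kinase that halts translation, read 666, 587 and 626 in vehicle and 644, 696 and 607 under DAPT (log2 change 0.05, adjusted p = 0.611). Its groups overlapped too. Creb3l1, a membrane-bound factor that raises type I collagen in mouse bone, read 1248, 1205 and 1144 in vehicle and 1189, 1182 and 1130.2 under DAPT (log2 change -0.04, adjusted p = 0.609). Creb3l2, which raises Sec23a in mouse cartilage, read 1856, 1758 and 1667 in vehicle and 1714, 1638 and 1764 under DAPT (log2 change -0.04, adjusted p = 0.533). Neither factor separated the groups.

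Of 7 degradation genes tested, 2 were higher and 1 lower, beside 9.22% and 8.91% of all genes. Of their log2 changes 6 of 7 were above 0, as were 7503 of 14906 over all genes. The calls came to 1 higher and 1 lower after quantile normalisation and with edgeR, and to 0 and 0 with DESeq2. Edem1, a lectin that marks misfolded glycoproteins by trimming mannose, read 2029.7, 2104 and 2071 in vehicle and 2254, 2313 and 2358 under DAPT (11.6% higher, log2 change 0.16, SE 0.0359, adjusted p = 0.00257). All DAPT libraries lay above the vehicle libraries, and the call was lost with DESeq2 (adjusted p = 0.111). Derl2, part of the channel through which proteins leave the ER, read 688, 724 and 725 in vehicle and 760.0, 787 and 799 under DAPT (log2 change 0.13, SE 0.0473, adjusted p = 0.0497). That value sits at the threshold, and the call was lost in 10 of 15 alternatives, where its adjusted p reached 0.541 with DESeq2. Syvn1 encodes HRD1, the ubiquitin ligase at the centre of the pathway, and read 1378, 1414 and 1309.6 in vehicle and 1238, 1191 and 1277 under DAPT (log2 change -0.15, SE 0.0425, adjusted p = 0.0173). Its groups did not overlap, and its call was lost with DESeq2 (0.12) and without vehicle replicate 2 (0.0994), DAPT replicate 1 (0.0501) or DAPT replicate 2 (0.114).

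Sel1l, the partner that holds HRD1 in its complex, read 2747, 2660.3 and 2619 in vehicle and 2676, 2706 and 2749.6 under DAPT. Its groups overlapped (log2 change 0.02, adjusted p = 0.773). Herpud1, a short-lived scaffold that stress induces strongly in many cells, read 647, 744 and 725 in vehicle and 751, 757 and 720.1 under DAPT (log2 change 0.08, adjusted p = 0.367). Derl1 read higher in all DAPT libraries without passing (log2 change 0.08, adjusted p = 0.165), and Edem2 overlapped (0.04, adjusted p = 0.633). Together the degradation genes held 784 to 802 ppm in vehicle and 822 to 837 under DAPT, 4.32% more and without overlap.

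Entry into the ER gave no call. Of 4 genes of the channel and its TRAP complex, 0 passed with limma, edgeR or DESeq2, and 1 was higher and 0 lower at an unadjusted p under 0.05. That gene was Ssr1, a TRAP subunit, at 3826, 3689 and 4003 in vehicle and 4005, 4215 and 4099 under DAPT (log2 change 0.10, adjusted p = 0.0623). It passed after quantile normalisation (0.0311), with the robust fit (0.0455) and without vehicle replicate 3 (0.0111). Its neighbour in the complex, Ssr3, and the channel subunits Sec61a1 and Sec61b had overlapping groups and log2 changes between -0.05 and 0.01.

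At the exit, Sec23a encodes the inner COPII coat protein, whose loss in humans causes a skeletal disorder with collagen held in the ER. It read 1137, 1154 and 1074 in vehicle and 1021, 971 and 954 under DAPT, and fell by 12.5% (log2 change -0.19, SE 0.0445, adjusted p = 0.0031). Every DAPT library lay below the vehicle libraries, and only DESeq2 among the 15 alternatives lost the call (adjusted p = 0.16). Sec24d, the coat subunit that picks cargo, read 1561, 1477 and 1427 in vehicle and 1413, 1389 and 1407 under DAPT. Its groups lay apart as well, but the log2 change of -0.08 did not pass (adjusted p = 0.164). The KDEL receptors, which bring escaped chaperones back from the Golgi, gave 0 calls with limma, edgeR and DESeq2 and 0 at an unadjusted p under 0.05. Kdelr3 read 784, 802 and 757 in vehicle and 778, 777 and 788 under DAPT (log2 change 0.00, adjusted p = 0.999), and Kdelr2 was 0.03 higher on the log2 scale (adjusted p = 0.606).

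Levels per length of transcript ran over a wide range in this set. In vehicle libraries, normalised counts per kilobase of the deposited gene length were 5522 for Calr, 4399 for P4hb, 4368 for Hspa5, 3398 for Pdia3, 2791 for Hsp90b1 and 1892 for Canx. Under DAPT the same scale gave 5528, 4053, 4111, 3395, 2652 and 2267, so P4hb and Hspa5 changed places. In vehicle these neighbours differed by less than the spread of P4hb between libraries, but by more than that of Hspa5. At the low end stood Derl2 at 75.3, Fkbp14 at 68.1 and the untested Derl3 at 2.21 in vehicle. The sensors lay in the lower part of the range, with Atf6 at 150.4, Ern1 at 104 and Eif2ak3 at 97.7 per kilobase. Genes of other roles lay there too, such as Edem2 at 156.4 and Syvn1 at 111.7.

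Related genes outside the set were read from the same fit, in which 9.22% of all genes were higher and 8.91% lower. Among 33 other folding and glycan-trimming genes, 5 were higher and 10 lower, with a median log2 change of -0.06. The largest falls were those of Rcn3, a calcium-binding protein of the secretory path, from 1976 ± 109 to 1319.5 ± 89.8 (log2 change -0.58), of the isomerase Fkbp11 (-0.38) and of the disulphide isomerase Txndc5 (-0.23). The largest rises were those of Tmx4, Tmx1 and Tmx3 (0.21, 0.21 and 0.19), disulphide isomerases that sit in the ER membrane. Of 25 other degradation genes 4 were higher and 0 lower (1 lower at an unadjusted p under 0.05, 0 lower by edgeR and DESeq2), with the ubiquitin ligases Rnf185 (0.22) and Tmem129 (0.16) and the glycosyltransferase subunit Stt3b (0.13) in front. The 4 calls were 16% of those tested, under the 18.1% of all genes, and with DESeq2 0 of these 25 were higher.

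Of 14 genes of the PERK and ATF4 branch, Atf4 itself (log2 change 0.15) among them, 6 were higher and 3 lower. The calls came to 5 higher and 1 lower with edgeR and to 3 and 1 with DESeq2. The 5 that did not pass were Ppp1r15a (-0.04), Trib3 (-0.11), Chac1 (-0.17), Sesn2 (0.08) and Ddit4 (0.01). Asns, asparagine synthetase, went from 593 ± 20.8 to 783 ± 34.6, Nupr1 from 391 ± 21.2 to 508 ± 34.8 and Ddit3, which encodes the stress factor CHOP, from 1063 ± 102 to 1376 ± 58.1. Cebpb (log2 change -0.27), Atf3 (-0.23) and Stc2 (-0.20) were lower. These genes also answer to amino acid supply and other signals. Among 17 other transducers and factors, 0 were higher and 1 lower, with 1 higher at an unadjusted p under 0.05, and edgeR and DESeq2 each gave 0 higher and 0 lower. That gene was Mbtps1 (log2 change -0.16, adjusted p = 0.0052), the protease that makes the first cut in ATF6.

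Of 27 other genes of the COPII coat and ER exit, 6 were lower and 0 higher (1 higher at an unadjusted p under 0.05, 0 by edgeR and DESeq2). That is 22.2% called, near the 18.1% of all genes. Of the log2 changes 24 of 27 lay below 0, as did 7403 of 14906 over all genes. Lman1, a cargo receptor for glycoproteins, went from 3571 ± 11.95 to 2967 ± 46.6 (log2 change -0.27), and the coat and scaffold genes Sec13 (-0.25) and Sec16a (-0.21) fell as Sec23a did. Entry genes outside the set were mixed, with 4 higher and 1 lower of 29 (17.2% called, against 18.1% of all genes). Magt1 (0.18), Spcs2 (0.15) and Tram1 (0.14) were higher and Spcs1 (-0.11), a subunit of the signal peptidase, was lower, and with DESeq2 0 of the 29 passed.

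**Figure D3:**
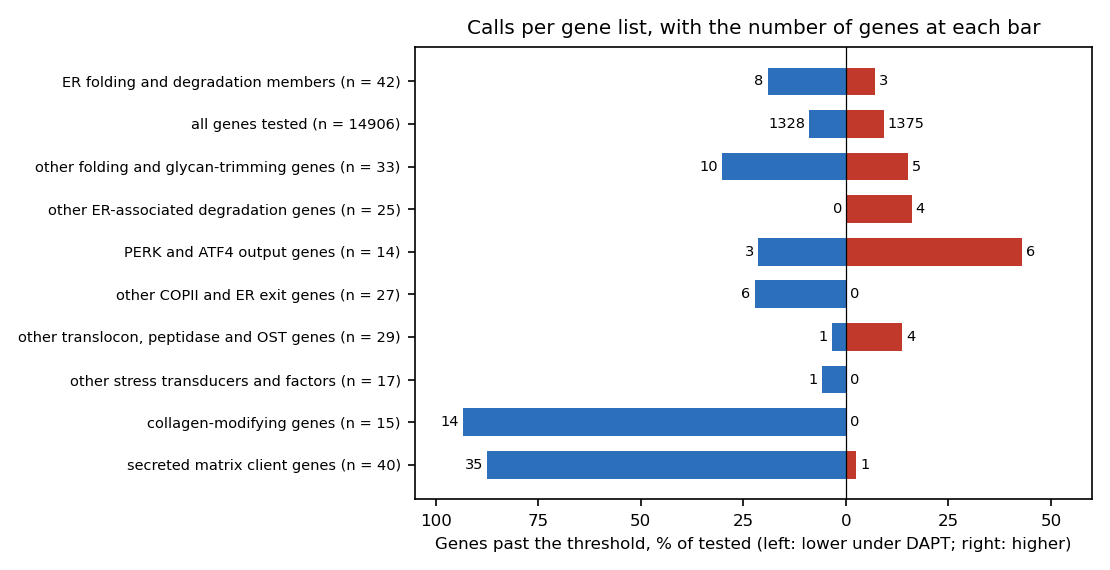
Share of tested genes past the threshold in each list, with bars to the left for genes lower under DAPT and to the right for genes higher, and the number of genes at each bar. The ER folding and degradation genes (8 lower, 3 higher of 42) stand beside 1328 lower and 1375 higher of all 14906 genes, and the collagen-modifying genes (14 of 15 lower) and secreted matrix genes (35 of 40 lower) stand far to the left.

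Most messengers in a list of secreted matrix proteins, which are part of what this machinery handles, were lower under DAPT. The list was chosen with earlier results of these data known, so its counts describe it and are not a test. Other proteins that pass through the ER were not summed. Of 40 genes for secreted matrix proteins 35 were lower, beside 8.91% of all genes, and 4 did not pass. The remaining gene, Vcan, was higher (log2 change 0.44), and the median log2 change of the list was -0.48. Lox (-1.26 on the log2 scale), Col11a1 (-1.08) and Eln (-0.98) fell most. Of 15 genes whose products modify or cut collagen, 14 were lower and 0 higher (1 higher at an unadjusted p under 0.05, 0 by DESeq2 and 0 by edgeR), with a median of -0.26, led by P4ha3 (-0.65), Leprel1 (-0.51) and Adamts2 (-0.46). Among the ER genes studied here, Fkbp10 (-0.40) lay nearest to the matrix median and Fkbp7 (-0.24) nearest to the collagen-modifying median.

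Summed over each library, the 43 ER genes held 12122, 11986 and 12360.2 ppm of all counts in vehicle and 11993, 12075 and 11929 under DAPT. The groups overlapped and the ratio of means was 0.987. In such a sum the genes with most counts weigh most, among them Calr, Hspa5 and P4hb. Opposite moves, such as those of Canx and P4hb, offset each other in it. Secreted matrix genes held 34326, 31723 and 31326 ppm in vehicle and 23298, 22791 and 22841 under DAPT, a ratio of 0.708 with no overlap. Collagen-modifying genes lay between them, at 5095, 5104 and 4897 against 4221, 4174 and 4216, a ratio of 0.835. Counts of ER genes per count of matrix genes were therefore 0.353, 0.378 and 0.395 in vehicle and 0.515, 0.530 and 0.522 under DAPT, 1.39 times as high. The groups did not overlap in this ratio, whose numerator had overlapping groups. Weighted by gene length, the ER genes' summed level had a ratio of 0.966 without overlap, and the ratio to matrix genes rose 1.38 times.

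**Figure D4:**
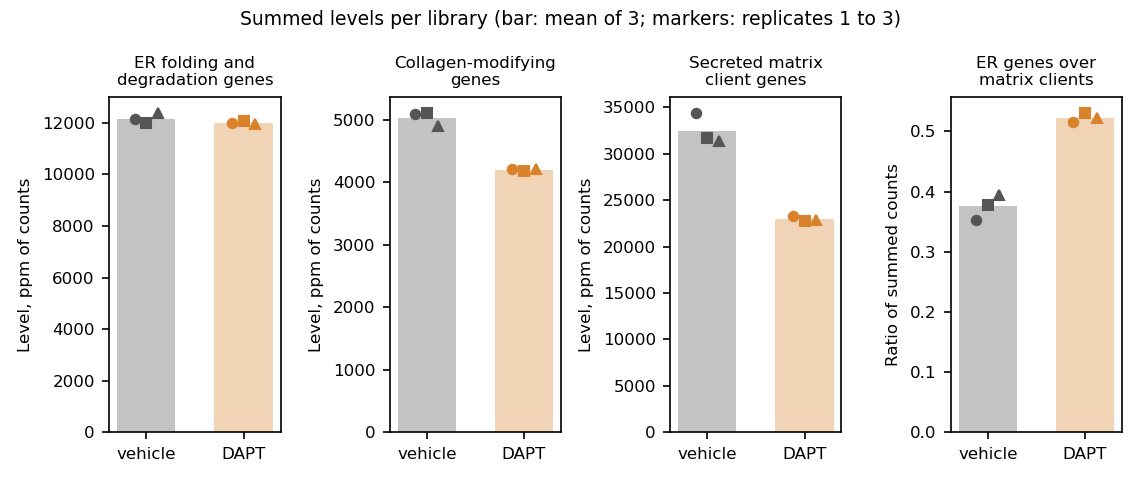
Summed level per library of the 43 ER genes, the 15 collagen-modifying genes and the 40 secreted matrix genes in ppm of counts, and the ratio of ER to matrix genes, with bars for group means and markers for replicates 1 to 3. The ER genes overlap, with means of 12156 and 11999 ppm, whereas the matrix genes drop from 32458 to 22977 and the ratio rises from 0.375 to 0.522.

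**Figure D5:**
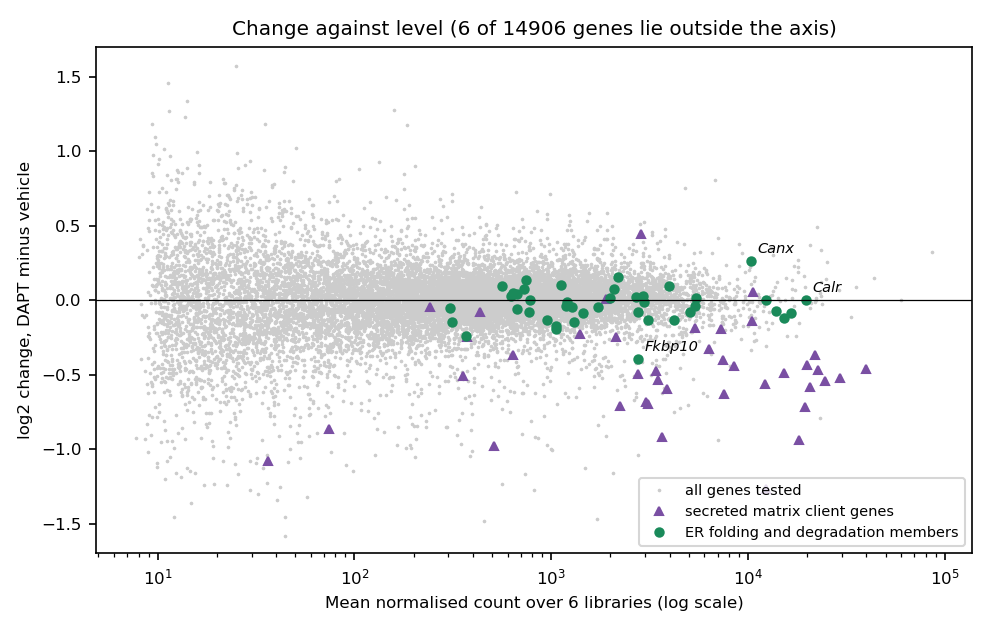
Log2 change, DAPT minus vehicle, against the mean normalised count of the 6 libraries on a log axis, with all 14906 tested genes in grey, the ER folding and degradation genes as green circles and secreted matrix genes as purple triangles, and 6 genes outside the axis. The green circles hug the line at 0 at high levels, with Canx above and Fkbp10 below, and most purple triangles of like level lie well below them.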

How the data were processed

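RNA was sequenced from 6 samples, 3 with vehicle and 3 with DAPT. Groups come from the labels; the letters C and I of the table's columns were taken for control and inhibitor, a reading the labels leave unstated. TopHat2 2.0.4, HTSeq 0.5.4p3, DESeq 1.16.0 and build mm9 are named, without roles, in the submitters' processing notes. Annotation, filters and use of strand are not given in the sources used here, so reads from antisense partners cannot be told apart. The authors deposited a signal per gene and library which, per the values, is the read count over a size factor. 100% of values were whole multiples of 1 read within 0.01 reads, and the reads of 5 libraries entered count tests; DAPT replicate 3, with a size factor of 1.01, was left out there. The authors also deposited a log2 ratio, a p-value and an adjusted p-value per gene, used only where named, and the gene length.

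The main test was limma 3.58.1 (R 4.3.3), fitted to log2(value + 1) with a variance trend over level, for genes at 10 or more in at least 3 libraries, which left 14906 of 37309 rows; 14349 rows had no reads. P-values were two-sided, adjusted by Benjamini-Hochberg over all genes tested, with a threshold of 0.05 and no covariate. Fold changes are on the log2(value + 1) scale, which understates changes of low genes. edgeR 4.0.16 and DESeq2 1.42.0 were alternatives. Each procedure was tested on simulated data. The genes and lists were chosen with earlier results of these data known. Values are given in every library for genes past the threshold and a fixed set of sensors, factors and exit genes, and otherwise where a comparison turns on them; from other lists, up to 3 called genes at each end are named. Sequences came from the RefSeq promoter table (GRCm38.p6). The listed symbols Vimp, March6 and Mia3 matched no row.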

Additional observations from a re-analysis of the deposited data

How the results depend on the processing

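With DESeq2 on 5 libraries, 982 of all genes and 2 of the ER genes were called, against 2703 and 11; limma without DAPT replicate 3, which uses the same 5 libraries, called 1956 and 8, and edgeR on them 1939 and 8. Weighted by gene length, the ER genes' summed level had a ratio of 0.966. Leaving out each library in turn gave between 1868 and 2718 calls over all genes, between 8 and 12 among the ER genes, a median log2 change between -0.04 and -0.02, and ratios of DAPT to vehicle from 0.980 to 0.995 for ER genes, 0.696 to 0.729 for matrix genes and 1.35 to 1.43 for ER over matrix genes. Other pseudocounts, filters, quantile normalisation and a robust variance kept the ER count between 10 and 12.

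Direction turned only for genes near 0 that never passed. Pdia3 reached 0.08031 after quantile normalisation, and Calr read -0.005123 with edgeR and -0.002815 with DESeq2. Leaving out libraries moved the log2 change of Sdf2l1 from -0.001743 to 0.05118, Dnajc3 from -0.02507 to 0.003122, Calr from -0.01573 to 0.01646, Pdia3 from -0.01679 to 0.02739, Eif2ak3 from -0.0002081 to 0.0976, Sec61a1 from -0.002508 to 0.03537, Sec61b from -0.09629 to 0.03175 and Kdelr3 from -0.02234 to 0.01946. The causes were not tested.

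The replicate number as a block gave 12 calls among the ER genes and 2732 over all genes. Deviations of same-numbered samples correlated by 0.0267, -0.0175 and 0.0099, and not every sample correlated best with its own number, so the numbers were not taken as pairs. With 3 libraries per group, small changes in low genes were not detectable, and no exact test of single values can go below p = 0.1.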
